A study of Rattus norvegicus with 24 samples.

Results

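Methotrexate was compared with its injected placebo after 34 days of therapy in rats with collagen-induced arthritis. The comparison rests on 4 of the 24 arrays of the series, taken by their titles: 2 from methotrexate rats (MTX at 34 days) and 2 from placebo rats (PLA at 34 days). All 4 animals were female Wistar rats, labelled RA, in which arthritis had been induced with bovine type II collagen in adjuvant. MTX rats received methotrexate by peritoneal injection once a week, and PLA rats received sterile saline by the same route at the same interval. Both groups were shaved and were sampled under ether, so they share the injection, the anaesthetic and the day of disease and differ in the drug. Each array is 1 rat, whose blood was drawn once before sacrifice; peripheral blood mononuclear cells were isolated on a Ficoll gradient, and RNA was hybridised to an Affymetrix rat genome array. Blood from 2 MTX and 2 PLA rats sacrificed 1 hour after the start of therapy forms the comparison most like it, and the rats labelled RA before any therapy (RA at baseline) give the starting level. The sources used here do not give the ages of the rats or the time between the last injection and sampling.

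Methotrexate is a folate analogue that inhibits dihydrofolate reductase, and in its polyglutamated form also thymidylate synthase and an enzyme of purine synthesis. Low weekly doses are a first-line therapy of rheumatoid arthritis, where release of adenosine, which acts on receptors of immune cells, is one of the mechanisms proposed. Mononuclear cells of blood are T cells, B cells, natural killer (NK) cells and monocytes. A Ficoll preparation also carries platelets and some granulocytes, and their transcripts are read with the rest.

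Values are RMA levels on the log2 scale, so that a difference of 1 is a 2-fold difference, and every difference below is MTX minus PLA with its standard error from limma. In the 4 arrays Cd3e of T cells lay between the 98.3 and 98.5 percentile of all probe sets, Ms4a1 of B cells between 86.1 and 90.0, Nkg7 of NK cells between 96.7 and 98.8 and Lyz2 of monocytes at or above 99.9, so transcripts of each of these cell types were read. Pf4 of platelets also lay above the 99.9 percentile and S100a8 of neutrophils between 97.1 and 98.7. Replicate arrays differed by an SD over probe sets of 0.41 in MTX and 0.28 in PLA, against 0.23 to 0.88 over the 12 groups of the series. In 4 arrays of other groups, 1 of them from PLA at 1 hour, the values stood apart from their replicates. The labels do not number rats within a litter or cage. Standard errors and p-values rest on the spread between animals within groups, pooled over all 12 groups of the series. They are not the spread of MTX and PLA alone, and groups with wider replicate differences than these enter them. With 2 arrays against 2, an exact two-sided permutation test of a single gene cannot give a p below 0.333.

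Over the whole array no difference between MTX and PLA at 34 days passed correction. Of 20709 probe sets tested with limma, 0 (0.0%) had an adjusted p under 0.05 by Benjamini-Hochberg, and the smallest adjusted p was 1.0. At an unadjusted p under 0.05 there were 153 probe sets (0.739%), 98 of them (0.473%) lower in MTX. Unadjusted p under 0.05 with a fold change over 2, the threshold of the study's methods, was met by 33 probe sets (0.159%), 24 lower (0.116%) and 9 higher (0.0435%) in MTX. This count was 19, of which 7 lower, without MTX replicate 1, and 120, of which 81 lower, without MTX replicate 2. The study applied its threshold to MAS5 levels and dropped probe sets with an absent detection call in any array compared. Here RMA levels were used without detection calls, so the study need not have called the same probe sets. For all genes, each read by its probe set with the highest mean, the median difference was -0.01 over 11061 genes and 52.4% lay below 0. In 20.4% of genes both MTX arrays lay below both PLA arrays, and in 17.3% above, so a count of genes with groups that do not overlap is read against these shares. Gene differences below are therefore measured values with their errors, none of which passed the test across the array.

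Among genes with a single symbol, the 12 lowest in MTX by the moderated statistic, past the study's thresholds, included 2 chemokines, tissue factor and 2 genes of cytotoxic cells. Some, such as Tfec, F3 and Cxcl11, read below the array medians (5.48 to 5.58) in both MTX arrays. Tfec, a transcription factor of the MiT family expressed in macrophages, read 4.26 and 4.33 in MTX and 5.29 and 5.51 in PLA. Its difference was -1.11 ± 0.28 (SE, n = 2 per group, 95% interval -1.71 to -0.51, unadjusted p = 0.00127), with a smaller value of -0.64 at its other probe set. F3, tissue factor, which starts coagulation on the surface of stimulated monocytes, read 4.29 and 4.49 in MTX and 6.20 and 6.97 in PLA. This was the largest difference of the 12, -2.19 ± 0.75 (SE, n = 2 per group, 95% interval -3.79 to -0.59). Baseline RA rats read 3.57 and 3.52, below both groups. Rats without arthritis read 5.66 and 4.64 at 34 days, above both MTX arrays, and the differences from them were not tested. Olr1, a receptor of oxidised low-density lipoprotein, read 4.05 and 5.52 in MTX and 7.64 and 5.90 in PLA, a difference of -1.98, and its lowest PLA and highest MTX arrays were close. Cxcl11, a chemokine induced by interferon, was lower by 1.42 on the log2 scale, as its values of 4.40 and 4.90 in MTX and 6.43 and 5.72 in PLA show. Bcl2a1, an inhibitor of apoptosis in leukocytes, read 9.84 and 10.83 in MTX and 11.52 and 11.36 in PLA. Rora, a nuclear receptor, differed by -1.05, Hs3st1, a heparan sulfate sulfotransferase, by -1.15, and Sema3g, a secreted semaphorin, by -1.19, while the other probe set of Sema3g gave 0.12. The remaining members, Klrc2, Gzmb, Fosb and Cxcl2, are described with their gene groups.

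The same rule found 2 named genes higher in MTX. Dguok, the mitochondrial deoxyguanosine kinase, read 5.32 and 5.45 in MTX and 3.84 and 3.76 in PLA, a difference of 1.59 ± 0.57 (SE, n = 2 per group), but its other probe set gave -0.01. Both groups read below the array medians of 5.48 to 5.58 for Dguok. Phf7, a PHD finger protein, read 6.33 and 6.63 in MTX and 4.96 and 5.45 in PLA, a difference of 1.28 ± 0.58, and its other probe set gave 0.82. A further 2 genes past the thresholds, Ccdc80 and Tmlhe, overlapped between the groups, and 14 of the 33 probe sets carried no single gene symbol.

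Transcripts of NK cells and cytotoxic lymphocytes were lower in MTX as a group. All 23 measured members of the list lay below 0, with a median of -0.91 against -0.01 over all genes, and in 22 of them (95.7%) both MTX arrays lay below both PLA arrays, against 20.4% of all genes. At an unadjusted p under 0.05 there were 3, all past a 2-fold difference, against 0.579% of all genes, and 0 passed the adjusted threshold. The mean level of the list, relative to its mean over the 24 arrays, was -0.82 and -0.33 in MTX and 0.46 and 0.11 in PLA. The groups did not overlap, and MTX replicate 1 lay farthest out. Without that array the median was -0.60, and without MTX replicate 2 it was -1.19. In bulk blood cells, fewer cells of a type and less RNA per cell cannot be told apart.

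Among the cytolytic enzymes, Gzmb had the largest difference of the list and the others lay near its median. Gzmb, granzyme B, a protease that triggers apoptosis of target cells, read 8.86 and 9.86 in MTX and 11.17 and 10.57 in PLA. Its difference was -1.51 ± 0.75 (SE, n = 2 per group, 95% interval -3.11 to 0.09), and its other probe set, 1 of the 12 lowest, gave -1.78. Prf1, perforin, which opens the membrane for granzymes, read 11.26 and 11.95 in MTX and 12.60 and 12.25 in PLA, a difference of -0.82 ± 0.55. Gzma, Gzmk and Gzmm, the other granzymes of the list, differed by -0.99, -0.83 and -0.91. Both MTX rats lay below both PLA rats for each of these enzymes.

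Receptors and regulators of NK cells followed the same direction. Klre1, a lectin-like receptor, read 7.45 in each MTX array and 9.10 and 8.69 in PLA, a difference of -1.45 ± 0.66 (SE, n = 2 per group, 95% interval -2.86 to -0.04). Eomes, the T-box factor of NK and memory CD8 T cells, read 6.48 and 7.51 in MTX and 8.35 and 8.17 in PLA, a difference of -1.26 ± 0.59. Klrc2, an activating receptor, read 6.17 and 5.47 in MTX and 7.07 and 6.90 in PLA, a difference of -1.17 ± 0.45. The pair of MTX values lay below both PLA values in all 3 genes. Ncr1 (NKp46), which marks NK cells, differed by -1.02, Klrb1a by -0.99, Il2rb, a receptor chain for interleukins 2 and 15, by -0.93, Klrg1 by -0.93, Klrd1 by -0.69 and Klrc1 by -0.46. Ifng, interferon gamma, differed by -1.26 at low levels of 4.25 and 4.65 in MTX and 6.04 and 5.38 in PLA, and Faslg, the Fas ligand, by -0.92. Klrk1 (NKG2D) was the exception, with overlapping values of 8.0 and 9.30 in MTX and 8.84 and 8.59 in PLA.

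**Figure D1:**
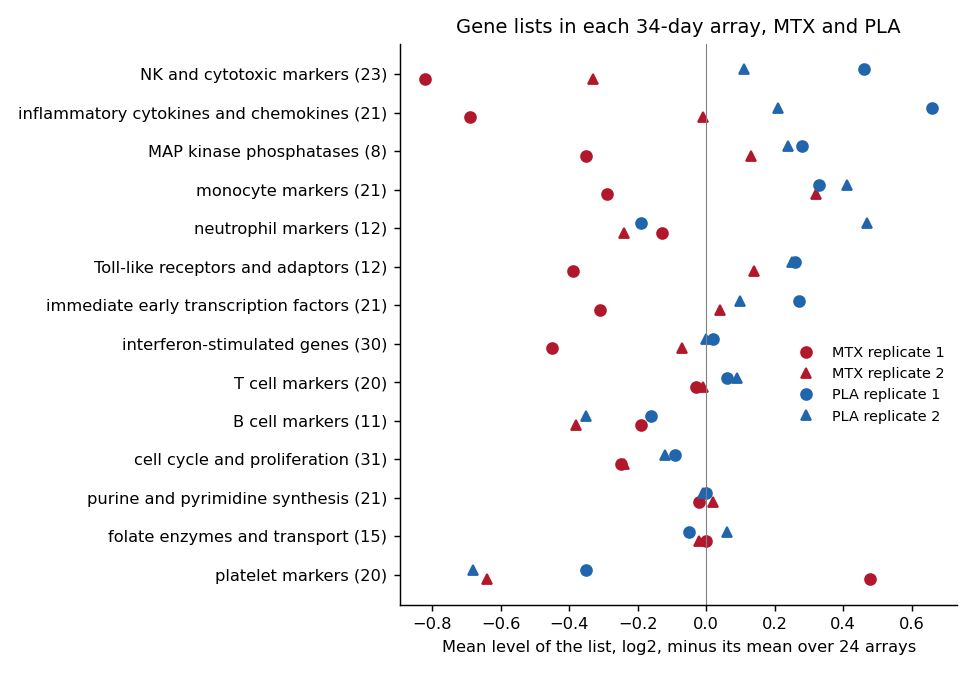
Mean level of each gene list (log2, minus its mean over the 24 arrays) in the 4 arrays of MTX and PLA at 34 days, with the number of measured genes in parentheses. MTX replicate 1 lies lowest for the NK and cytokine lists (-0.82 and -0.69) and highest for platelet markers (0.48), and MTX replicate 2 lies nearer to PLA.

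Levels of the NK list in the other arms give the range in which these values fell. The list stood at 0.43 and 0.46 in RA rats at baseline. At 34 days it stood at 0.46 and 0.11 in PLA and at -1.20 and -0.50 in AP (acupuncture). The 2 AP arrays lay far apart over all probe sets, with an SD of 0.835. AP replicate 1, at -1.20, was also low for T cell markers (-1.39, replicate 2 at -0.13) and cytosolic ribosomal proteins (-0.95, replicate 2 at 0.06). Its platelet level was high (1.35, replicate 2 at 0.49), so its low level was not particular to the NK list. In ANE (RA rats sampled under isoflurane in place of ether) it stood at -0.01 and -0.18 at 34 days. Rats without arthritis (NORA) stood at 0.38 and 0.29 at baseline and at -0.89 and -0.62 at 34 days, so untreated healthy rats also read lower at 34 days. Replicates lay far apart at 1 hour in NORA (1.08 and -0.45) and in ANE (1.08 and -0.57). For Gzmb, the 34-day order from high to low was PLA, ANE, MTX, AP and NORA, where MTX at 8.86 and 9.86 overlapped AP at 8.72 and 9.43 and NORA at 8.57 and 9.15. This order was read from 2 arrays a group and the differences between neighbours were not tested.

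**Figure D2:**
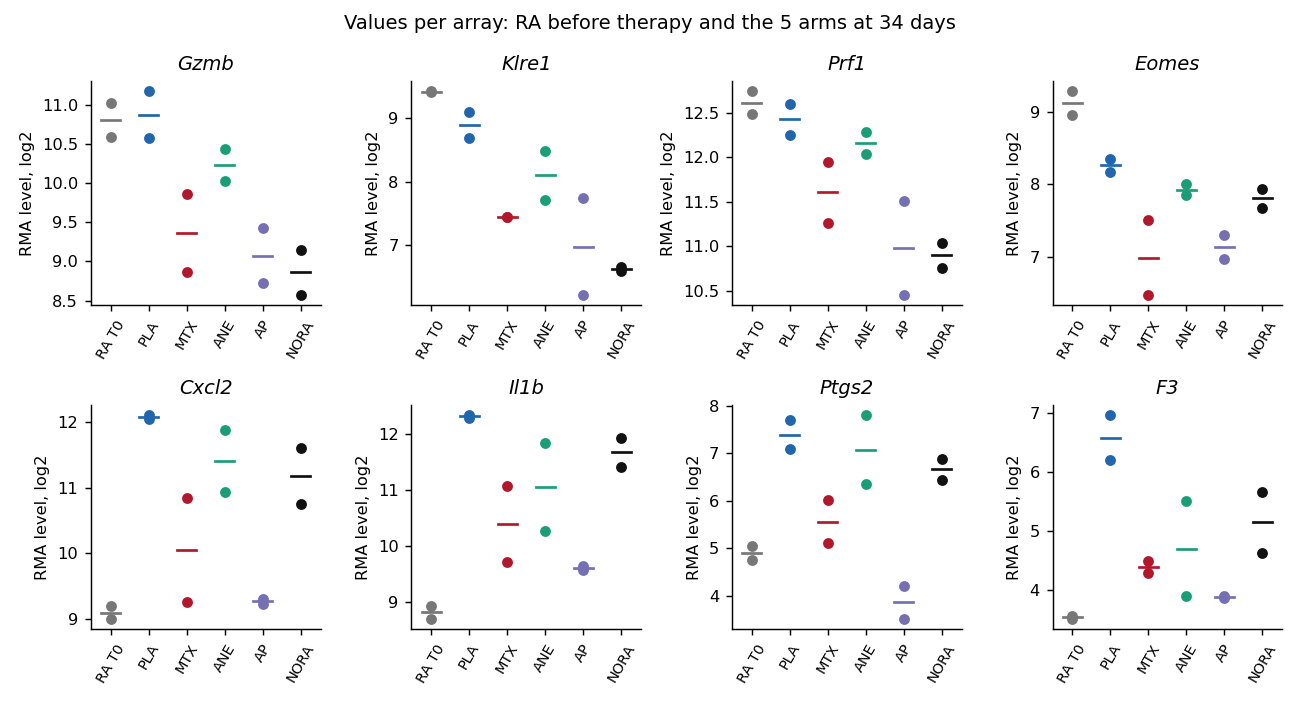
RMA level (log2) of 8 genes in each array, with the group mean as a bar, for RA rats before therapy and the 5 arms at 34 days; vertical axes differ between panels and do not start at 0. The 4 cytotoxic genes of the upper row are lower in both MTX arrays than in both PLA arrays, and Cxcl2, Il1b, Ptgs2 and F3 of the lower row stand above baseline RA in every PLA array.

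Inflammatory cytokines and chemokines, the secreted signals of activated monocytes and lymphocytes, were also lower in MTX. Of 21 measured members 20 lay below 0, the median was -0.62, and in 11 (52.4%) the groups did not overlap, all lower in MTX, against 20.4% of all genes. There were 2 at an unadjusted p under 0.05, against 0.579% of all genes, and 0 called. Without MTX replicate 1 the median was -0.31, and without MTX replicate 2 it was -1.11. Cxcl2, a chemokine that attracts neutrophils, read 9.26 and 10.85 in MTX and 12.11 and 12.05 in PLA. Its difference of -2.02 ± 0.88 (SE, n = 2 per group, 95% interval -3.88 to -0.16) corresponds to a 4.06-fold lower level. Il1b, interleukin 1 beta, a driver of joint inflammation, read 9.71 and 11.08 in MTX and 12.35 and 12.30 in PLA, a difference of -1.93 ± 1.04 (95% interval -4.14 to 0.28). Cxcl1, the neighbour of Cxcl2 with the same receptor, read 6.50 and 8.74 in MTX and 10.22 and 8.86 in PLA, a difference of -1.92 in which the higher MTX and the lower PLA array nearly met. The 2 PLA arrays agreed closely for Cxcl2 and Il1b, while the MTX arrays lay over 1 log2 unit apart.

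Other members had smaller differences. Tnf, tumour necrosis factor, read 5.68 and 5.90 in MTX and 6.97 and 6.79 in PLA, a difference of -1.09 ± 0.75 (SE, n = 2 per group), and its other probe set gave 0.12. Il1a, interleukin 1 alpha, was low in all 4 arrays, at 3.99 and 4.16 in MTX and 4.66 and 4.72 in PLA, and its difference of -0.62 ± 0.19 had the smallest unadjusted p of the list (0.00591). Osm, oncostatin M, differed by -1.17, Ccl4 by -1.06 and Ccl6 by -0.95. Cxcl10, an interferon-induced chemokine, read 5.58 and 7.35 in MTX and 7.59 in each PLA array, a difference of -1.13 ± 0.72 that was -0.25 without MTX replicate 1 and -2.01 without MTX replicate 2. Ccl3 overlapped between the groups, with a difference of -0.58. Ccl5, which also stands in the NK list, differed by -0.39. In baseline RA rats Cxcl2 read 9.0 and 9.19 and Il1b 8.92 and 8.69, below both groups, and in NORA rats at 34 days Cxcl2 read 11.60 and 10.75 and Il1b 11.94 and 11.42, above both MTX arrays for Il1b. Rats without arthritis thus also read high for both genes at 34 days, and the differences from them were not tested.

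NF-kB, the factor activated by Toll-like receptors and cytokines, is known to bind at several chemokine genes. The start regions shown are those of the 3 genes of the cytokine list that held a match to its motif. They are RefSeq promoters of build GRCr8, from 250 bases before to 50 after the gene start, each on the gene's own strand, chr14:17479272-17479571 (minus strand) for Cxcl1, chr14:17467206-17467505 (minus strand) for Cxcl2 and chr14:15988816-15989115 (plus strand) for Cxcl10. Capitals mark matches to the kappa B motif, the consensus of NF-kB, searched on both strands.
Cxcl1: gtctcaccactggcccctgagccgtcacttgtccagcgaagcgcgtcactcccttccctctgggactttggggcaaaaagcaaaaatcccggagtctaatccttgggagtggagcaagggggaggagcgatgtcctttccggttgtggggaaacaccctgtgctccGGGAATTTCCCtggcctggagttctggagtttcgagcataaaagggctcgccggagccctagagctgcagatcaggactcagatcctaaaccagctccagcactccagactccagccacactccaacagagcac
Cxcl2: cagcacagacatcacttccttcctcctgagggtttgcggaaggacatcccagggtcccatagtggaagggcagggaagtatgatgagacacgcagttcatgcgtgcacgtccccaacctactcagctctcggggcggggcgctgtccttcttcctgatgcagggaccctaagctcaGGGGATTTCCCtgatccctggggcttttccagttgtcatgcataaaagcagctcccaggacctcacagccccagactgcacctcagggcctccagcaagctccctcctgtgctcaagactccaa
Cxcl10: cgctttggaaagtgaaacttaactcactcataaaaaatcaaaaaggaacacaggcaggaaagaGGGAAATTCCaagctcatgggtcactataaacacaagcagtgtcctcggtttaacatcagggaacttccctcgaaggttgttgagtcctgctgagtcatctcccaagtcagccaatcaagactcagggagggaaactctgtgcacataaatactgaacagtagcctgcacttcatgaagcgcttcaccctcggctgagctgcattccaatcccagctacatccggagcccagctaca
The capitals of Cxcl1 and of Cxcl2 each hold 2 overlapping matches, which begin 84 and 74 bases before the gene start, and the match of Cxcl10 begins 187 bases before it. A match was held by 4.16% of 27457 RefSeq promoters. Of the cytokine list 11 genes had a promoter there and 3 held one (27.3%), of the NF-kB feedback and adhesion list 7 of 13 (53.8%), and of the NK list 0 of 17. A match is a description of the sequence and not a site shown to be bound.

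Products of NF-kB signalling did not move as one group. The NF-kB feedback and adhesion list (16 measured genes) had a median of -0.07, with 8 genes below 0. Of the list 6 (37.5%) were lower and 4 higher without overlap, against 20.4% and 17.3% of all genes. Cflar, an inhibitor of death-receptor signalling, read 8.67 and 8.72 in MTX and 9.62 and 9.37 in PLA, a difference of -0.81 ± 0.33 (SE, n = 2 per group, unadjusted p = 0.027), with -0.05 at its other probe set. Icam1, the adhesion molecule of leukocytes, differed by -0.79, Ier3 by -0.73, Nfkbiz by -0.60 with 0.08 at its other probe set, Nfkbia, which encodes the inhibitor I kappa B alpha, by -0.46 and Tnfaip3 (A20) by -0.21. These named genes were all lower in MTX, while 8 of the list lay above 0, the highest Sod2 with 0.40. Genes of the factor's own subunits ran from -0.20 to 0.13.

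Ptgs2 (cyclooxygenase 2), the inducible enzyme of prostaglandin synthesis, read 5.11 and 6.02 in MTX and 7.70 and 7.09 in PLA. Its difference was -1.83 ± 0.95 (SE, n = 2 per group, 95% interval -3.86 to 0.19), and baseline RA rats read 5.05 and 4.75. It was the only 1 of the 14 prostaglandin and leukotriene enzymes more than 2-fold lower. Of the 14, 12 lay below 0, but their median was -0.17. Without overlap 2 (14.3%) were lower, against 20.4% of all genes.

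Immediate early transcription factors, which cells induce within minutes of a stimulus, had a median of -0.32 over 21 genes, 16 of them below 0. In 8 (38.1%) the groups did not overlap with MTX lower, against 20.4% of all genes, and in 1, Jun, with MTX higher. Without MTX replicate 1 the median was -0.06, and without MTX replicate 2 it was -0.56. Fosb, a subunit of AP-1, read 6.90 and 8.10 in MTX and 9.21 and 8.57 in PLA, a difference of -1.39 ± 0.56 (SE, n = 2 per group, unadjusted p = 0.0253). Maff differed by -0.85, Fosl1 by -0.65, Egr1 by -0.65 and Myc by -0.56, while Jun read 10.07 and 10.17 in MTX and 9.89 and 9.58 in PLA, a difference of 0.38. The MAP kinase phosphatases, which the same signals induce and which switch them off, lay below 0 in 7 of 8 genes with a median of -0.43, which was -0.25 without MTX replicate 1. Dusp2 read 11.40 and 11.38 in MTX and 12.09 and 11.78 in PLA, Dusp14 differed by -0.61, and Dusp1 overlapped with a difference of -0.28.

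Monocyte transcripts were lower in MTX by less, and mainly in 1 rat. Of 21 monocyte markers 18 lay below 0, with a median of -0.38. In 7 (33.3%) the groups did not overlap, all lower in MTX, against 20.4% of all genes. Cd14, the coreceptor of endotoxin, read 10.39 and 11.19 in MTX and 11.58 and 11.87 in PLA, a difference of -0.94 ± 0.96 (SE, n = 2 per group). Ccr2, the receptor that guides inflammatory monocytes, differed by -0.83 ± 0.82 and Clec7a (dectin 1) by -0.73 ± 0.82. The level of the list was -0.29 and 0.32 in MTX and 0.33 and 0.41 in PLA. Without MTX replicate 1 its median was -0.02, and without MTX replicate 2 it was -0.79. Of the Toll-like receptors and adaptors, 7 of 12 lay below 0 with a median of -0.36, which was 0.00 without MTX replicate 1 and -0.62 without MTX replicate 2. Tlr2 read 6.85 and 8.11 in MTX and 8.90 and 8.58 in PLA, a difference of -1.27 ± 0.90, and Tlr7 differed by -1.16 ± 0.81.

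Neutrophil and platelet transcripts varied between the rats of a group. Of 12 neutrophil markers 10 lay below 0 with a median of -0.37, which was -0.11 without PLA replicate 2, where 7 lay below 0, and -0.74 without PLA replicate 1. Il1r2, a decoy receptor of interleukin 1, read 8.64 and 9.47 in MTX and 9.98 and 10.94 in PLA, a difference of -1.41 ± 1.35 (SE, n = 2 per group), Cxcr2, the receptor of Cxcl1 and Cxcl2, differed by -0.90, Csf3r by -0.78, S100a9 by -0.54 and S100a8 by -0.40, whereas Camp differed by 1.20 from 1 MTX array at 8.22 and the other at 6.24. Of 20 platelet markers 19 lay above 0 with a median of 0.50. In 0 of them did the groups separate, where 17.3% of all genes were higher in MTX without overlap. MTX replicate 1 alone was high, as in Alox12, which read 11.71 and 9.79 in MTX and 9.97 and 10.11 in PLA. Itga2b differed by 0.31 and Pf4 by 0.03. The platelet level was 0.48 in that array and -0.64 in the other MTX array, against -0.35 and -0.68 in PLA, and without MTX replicate 1 the median was -0.10. In the same array the NK, cytokine and monocyte levels were the lowest of the 4. Without it 22 of 23 NK genes and 18 of 21 cytokine genes lay below 0, at the smaller medians given above, and the part of platelet RNA in these differences was not tested.

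Medians of T and B cell transcripts lay near 0. The T cell markers had a median of -0.07 over 20 genes. Of these 20 genes, 7 were lower and 2 higher without overlap, against 20.4% and 17.3% of all genes. The share lower was thus above that of all genes, at small differences. Lef1, with 0.31, was among the 2 higher. Cd3e, a chain of the T cell receptor complex, read 11.44 and 11.53 in MTX and 11.53 and 11.45 in PLA, with an interval of -0.90 to 0.89 for the difference. Cd8a, of cytotoxic T cells, read 10.57 and 10.77 in MTX and 11.08 and 10.91 in PLA, a difference of -0.32 ± 0.54 (SE, n = 2 per group). The 11 B cell markers had a median of -0.04, with -0.17 for Ms4a1 (CD20) and 0.17 for Cd79b. Among 7 plasma cell markers 3 were higher and 2 lower without overlap, against 17.3% and 20.4% of all genes. Tnfrsf17 (BCMA), a survival receptor of plasma cells, read 6.62 and 6.29 in MTX and 5.65 and 6.04 in PLA, a difference of 0.61 ± 0.26 (SE, n = 2 per group, unadjusted p = 0.0312). Mzb1 differed by 0.64 and Jchain, the joining chain of secreted immunoglobulins, by 0.50. These 3 were the only members above 0. The other 4 lay below 0, down to -0.46 for Prdm1, and the median of the list was -0.04.

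**Figure D3:**
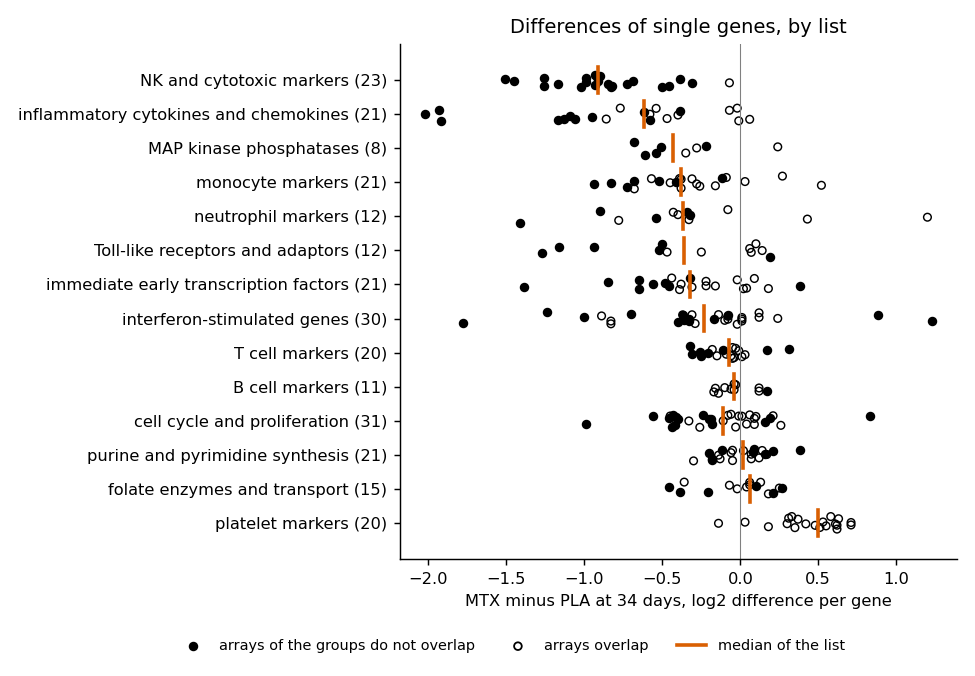
MTX minus PLA at 34 days (log2) for each measured gene of 14 lists; filled points are genes whose arrays do not overlap between the groups and the bar is the median of the list. The NK list lies wholly below 0 (median -0.91, 22 of 23 points filled), folate enzymes lie around 0 (median 0.06) and no platelet gene is filled.

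Enzymes of the pathways that methotrexate acts on lay near 0 at the RNA level. The folate list had a median of 0.06 over 15 genes, with 3 lower and 3 higher without overlap and 0 at an unadjusted p under 0.05. Tyms, thymidylate synthase, read 3.83 and 3.92 in MTX and 4.18 and 4.50 in PLA, a difference of -0.46 ± 0.35 (SE, n = 2 per group) at levels near the bottom of the scale, and Mthfd2, a mitochondrial folate enzyme, differed by 0.25 with overlapping arrays. Purine and pyrimidine synthesis had a median of 0.02 over 21 genes, with 4 lower and 5 higher without overlap. Atic, the purine enzyme that methotrexate polyglutamates inhibit, read 9.06 and 9.18 in MTX and 9.09 and 9.26 in PLA, with an interval of -0.73 to 0.62 for the difference.

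Genes of adenosine handling had a median of -0.11 over 14 genes. Of these 5 (35.7%) were lower and 0 higher without overlap, against 20.4% and 17.3% of all genes. Nt5e (CD73), which makes adenosine outside cells, read 6.22 and 7.24 in MTX and 7.34 and 7.43 in PLA, a difference of -0.66 ± 0.27 (SE, n = 2 per group, unadjusted p = 0.0296), of which the second MTX array showed little. Pnp differed by -0.45, and Adora2a, the receptor that dampens leukocytes, by -0.20 with overlapping arrays. Adk, adenosine kinase, differed by 0.65 ± 0.64 through MTX replicate 1 alone, which read 11.66 against 10.48 in the other MTX array and 10.51 and 10.33 in PLA.

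Cell cycle genes had a median of -0.11 over 31 genes, and in 12 (38.7%) MTX was lower without overlap, against 20.4% of all genes. Ccnd2, cyclin D2, read 8.71 and 9.72 in MTX and 10.04 and 10.37 in PLA, a difference of -0.99 ± 0.61 (SE, n = 2 per group). Cks2 differed by -0.43, and Mcm4, of the replication helicase, by 0.83 ± 0.43 from 8.74 and 8.95 in MTX and 7.97 and 8.06 in PLA. Targets of p53 had a median of -0.07 over 15 genes, 12 of them below 0, and 0 at an unadjusted p under 0.05, against 0.579% of all genes.

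Interferon-stimulated genes were uneven. Of 30 measured, 22 lay below 0 with a median of -0.23. Of them 11 (36.7%) were lower and 2 higher without overlap, against 20.4% and 17.3% of all genes. Without MTX replicate 1 the median was -0.05 with 17 genes below 0, and without MTX replicate 2 it was -0.33. Ifit3 read 6.28 and 8.61 in MTX and 9.06 and 9.39 in PLA, a difference of -1.78 ± 1.13 (SE, n = 2 per group) that was -0.61 without MTX replicate 1, Isg15, a ubiquitin-like protein, differed by -1.24 ± 0.61 and Oas1a by -1.0. Ifitm3 went the other way, at 6.75 and 5.91 in MTX and 5.71 and 4.50 in PLA, a difference of 1.23 ± 0.61. The 8 genes of MHC class II all lay below 0 with a median of -0.27 and 1 without overlap, RT1-Bb, whose difference of -0.61 stood against 2.80 at its other probe set. The 308 measured genes of the inflammation list that the study took from Gene Ontology had a median of -0.08, with 201 below 0. In 82 of them (26.6%) MTX was lower without overlap, against 20.4% of all genes, and 5 passed the study's thresholds, which 0.136% of all genes did. The study took up this term on these same samples, so the list is no independent evidence of a direction.

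One hour after the start of therapy, in other rats, cytotoxic genes were higher in MTX than in PLA, as were markers of other lymphocytes. The median of MTX minus PLA at 1 hour over the 23 NK genes was 0.79 against 0.08 over all genes, with 21 above 0, against 57.7% of all genes, and 20 higher without overlap, a share to be read against 35.8% of all genes. T cell markers had a median of 0.56 at 1 hour, with 16 of 20 higher without overlap, B cell markers one of 0.55, with 9 of 11, and plasma cell markers one of 0.50. Platelet markers had a median of -0.56 with 0 of 20 above 0 and erythroid markers one of -0.72 with 2 of 18 above 0. Plasma protein genes had one of -0.65 with 0 of 14 above 0, where 57.7% of all genes lay above 0. The share of these cell types in the NK difference was not tested. PLA replicate 2 at 1 hour, 1 of the 4 arrays that stood apart, enters each of these values. Klre1 read 9.31 and 9.56 in MTX and 7.62 and 7.86 in PLA at 1 hour. The difference between the 34-day and the 1-hour value had a median of -1.66 over the NK list, -1.79 without that array, and 22 of 23 genes lay below 0 in both. Klre1 had the value -3.15 ± 0.94 (SE, n = 2 per group, unadjusted p = 0.00413). An unadjusted p under 0.05 was reached by 12 of them, against 2.97% of all genes, and 0 of 20709 probe sets (0.0%) were called in that test, whose smallest adjusted p was 0.622; at an unadjusted p under 0.05 there were 697 (3.37%).

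The cytokine list was less uniform at 1 hour, with a median of 0.20 and 11 of 21 genes above 0. Tnf read 10.22 and 10.32 in MTX and 5.84 and 8.82 in PLA at 1 hour, a difference of 2.94, and the difference between the times was -4.03 ± 1.06 (SE, n = 2 per group, unadjusted p = 0.00168). Ptgs2 read 8.0 and 8.23 in MTX and 5.00 and 7.49 in PLA at 1 hour, and the difference between the times was -3.70 ± 1.35. In both genes PLA replicate 2 at 1 hour lay nearer to MTX than the other PLA array did, and its platelet level was 0.94 against -0.23 in the other PLA array. Without those 4 arrays 7 probe sets were called in the difference between the times, all lower at 34 days: Tnf (adjusted p = 0.0331 in limma), Il1a (0.011), Ptgs2 (0.0377), Cflar (0.011), Ccrl2 (0.011), Edn1 (0.0272) and Pvr (0.0272), which were named after their values were seen. In that fit PLA at 1 hour was a single rat, assumed to vary like the other groups, and leaving out this PLA array alone gave 0 calls and 383 probe sets at an unadjusted p under 0.05.

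**Figure D4:**
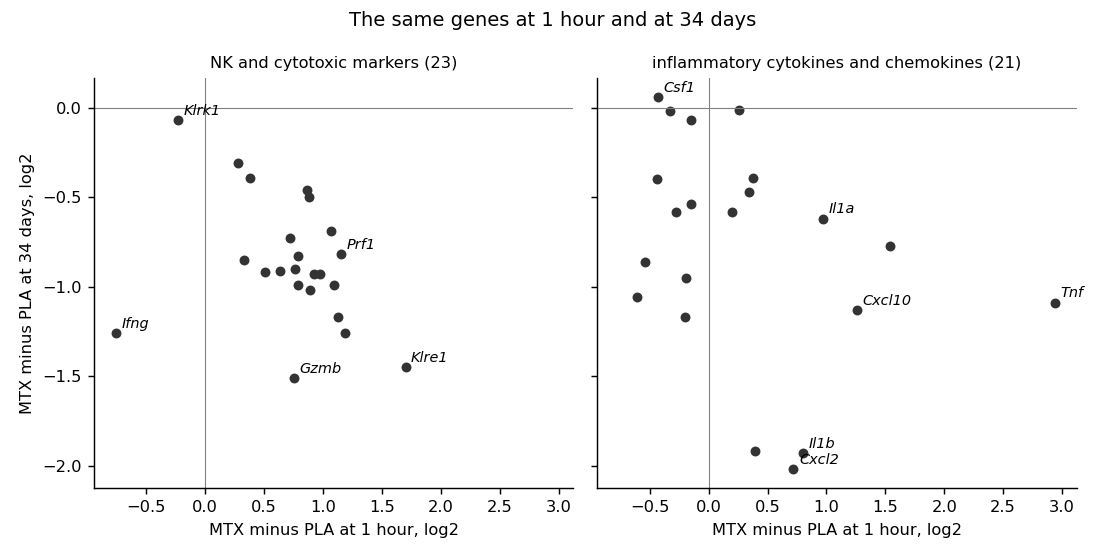
MTX minus PLA (log2) at 1 hour on the horizontal and at 34 days on the vertical axis, for the 23 NK and 21 cytokine genes; each point is a gene, and the rats at the 2 times are different animals. Most NK genes lie right of 0 at 1 hour and below 0 at 34 days, and the cytokine genes lie on both sides of 0 at 1 hour (11 of 21 above).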

How the data were processed

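The log2 values deposited by the authors are expression levels per probe set for which the submitters' processing notes name RMA and the affy package, versions not given in the sources used here. They ran from 2.18 to 15.02, with array medians of 5.48 to 5.58, and no further normalization was applied. RMA compresses differences at low intensity, and arrays have no read depth, so the number of arrays limits precision. A filter left 20709 probe sets, those that exceeded an array's 40th percentile at least 2 times, without controls. Symbols came from the platform annotation: of 31099 probe sets 20832 had 1 symbol, 436 several and 9831 none.

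Differences were fitted with limma 3.58.1 (R 4.3.3) with 1 coefficient for each of the 12 groups, on 24 arrays, leaving 12 residual degrees of freedom, adjusted by Benjamini-Hochberg over all probe sets; tables and plots used Python 3.11.15. A list is described by counts and its median, with no set test. Named genes were the 12 highest and 12 lowest past the study's thresholds without overlap, plus members of the 38 lists at the probe set with the highest mean. The members and lists were chosen with earlier results of these data known. Alternatives were other filters, quantile normalization, fewer arrays, a replicate block, robust limma-trend, array weights and leaving out each array. The fit was tested on simulated data.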

Additional observations from a re-analysis of the deposited data

Results flagged for a closer look

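In 7 of 39 gene lists, the study's inflammation list included, both MTX arrays lay on one side of both PLA arrays at 34 days and on the other side at 1 hour. Among single genes, 20.4% were lower and 17.3% higher in MTX without overlap at 34 days, and 35.8% were higher at 1 hour. The difference between the times was not tested for lists, and PLA at 1 hour includes an array that stood apart. For the NK and cytotoxic list the mean level of MTX minus PLA was -0.86 at 34 days and 0.73 at 1 hour, so that the difference between the times was -1.59. It was -0.58 for Toll-like receptors and adaptors (-0.38 at 34 days, 0.20 at 1 hour) and -0.40 for dendritic cell markers (-0.22, 0.18). The 1-hour value was the larger for T cell markers, at -0.55 (-0.10, 0.46), and apoptosis regulators, at -0.47 (-0.16, 0.32). The same held for respiratory chain subunits, at -0.31 (-0.12, 0.20), and, in the opposite direction, drug efflux transporters, at 0.34 (0.14, -0.20).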

How the results depend on the processing

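At 34 days 0 probe sets were called by limma in the chosen fit (153 at an unadjusted p under 0.05) and in 12 of the 13 alternatives, and without MTX replicate 1 there was 1, an unnamed probe set higher in MTX; the range over arrays left out was 0 to 1. The 33 probe sets past the study's thresholds became 54 with only the 34-day arrays, 60 with only the 4 arrays compared, 77 with weighted arrays, 77 after the 4 arrays that stood apart were left out, and ran from 19 to 120 when an array was left out. Without those 4 arrays 1042 probe sets (5.03%) had an unadjusted p under 0.05, and in the NK list 12 genes did, 6 of them past 2-fold. The difference between the times gave 1 call with array weights (Il1a) and 7 without the 4 arrays, from 0 in the chosen fit, and 0 to 0 when an array was left out.

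With the replicate block 0 were called and 34 passed the study's thresholds. The 2 arrays of equal number in MTX and PLA deviated together with r = 0.00839 over probe sets, 2 pairs. With 2 arrays a group this is a single correlation, which cannot decide whether numbers pair the rats.

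The median of the NK list ran from -1.19 to -0.60 with an array left out, that of the cytokine list from -1.11 to -0.31, that of platelet markers from -0.10 to 1.09, of prostaglandin enzymes from -0.22 to -0.04, of adenosine genes from -0.14 to -0.05, of MHC class II from -0.34 to -0.10, of the inflammation list from -0.13 to -0.05 and of cell cycle genes from -0.19 to -0.07. Genes whose difference changed sign were Alox12 (-0.25 to 1.68), Atic (-0.14 to 0.03), Cd3e (-0.05 to 0.04), Cma1 (-0.57 to 1.75), Cpa3 (-0.30 to 2.33), Fcer1a (-0.25 to 1.51), Itga2b (-0.11 to 0.74), Klrk1 (-0.72 to 0.58), Ms4a1 (-0.35 to 0.01), Mthfd2 (-0.24 to 0.74), Pf4 (-0.06 to 0.13) and S100a8 (-0.86 to 0.06). The causes were not tested.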

Other observations

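Mast cell and basophil transcripts stood out in 1 rat. Cpa3, the mast cell carboxypeptidase, read 5.29 and 7.92 in MTX and 5.83 and 5.35 in PLA, Cma1, a chymase, read 5.31 and 7.63 in MTX and 6.10 and 5.66 in PLA, and Fcer1a, a chain of the IgE receptor, read 3.32 and 5.08 in MTX and 3.65 and 3.49 in PLA, so that MTX replicate 2 alone was high for all 3 genes. The list of 10 had a median difference of 0.24, which was -0.19 without that array.

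Housekeeping groups differed by small amounts. Of 47 respiratory chain subunits 39 lay below 0 with a median of -0.13, which was -0.05 without MTX replicate 1, and 21 (44.7%) were lower in MTX without overlap, against 20.4% of all genes. All 23 measured cytosolic ribosomal protein genes lay below 0 with a median of -0.04, which was 0.01 without MTX replicate 1. The 48 splicing factors had a median of 0.03. Of them 16 were higher and 4 lower without overlap, against 17.3% and 20.4% of all genes. Among 15 circadian clock genes, with a median of 0.02, Hlf read 5.65 and 5.61 in MTX and 6.02 and 6.14 in PLA, a difference of -0.45.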
